A study of Mus musculus with 9 samples.

Results

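Pigr encodes the polymeric immunoglobulin receptor of the mouse, and it was read by 2 probe sets, all those that the platform annotation gives to Pigr alone, among 45101 probe sets and 18194 single-symbol genes on the arrays. The brighter one is 1455490_at, with a mean intensity of 5468 over the 9 arrays, and the dimmer one is 1450060_at, with a mean of 2658. Both passed the filter on low values. The files used here do not give the place of either probe set along the transcript. In the RefSeq gene table of assembly GRCm38.p6 the gene lies on chromosome 1, from 130826684 to 130852249.

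The receptor sits on the basal side of gut epithelial cells, where it binds IgA that plasma cells below the epithelium release joined by the J chain. It is carried through the cell in vesicles and cut at the apical surface, which sets IgA free in the gut lumen with the receptor's outer part, the secretory component, still attached. In human epithelial cells, interferon gamma, tumour necrosis factor, interleukin 4, interleukin 17 and bacterial products that act through NF-kappaB raise its transcription.

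The arrays measured RNA of whole distal small intestine, 4 pooled pieces of a gut divided into 16, taken from mice 10 days after they were given Bacteroides thetaiotaomicron, a common gut bacterium. The BP group (3 arrays) carries the title BP, whose meaning is not stated, over the same tissue source as the Rag1 group. The Rag1 group (3 arrays) came from mice named for Rag1, the gene of a recombinase needed for antibody and T cell receptor genes, and the B6 group (3 arrays) came from wild type mice. No allele, age, sex or batch is given, and separate mice behind the arrays are not stated, so p-values measure only the spread between these samples, and 3 arrays a group limit the precision. The series title asks what IgA does to this tissue after colonization, and Pigr is the receptor that carries it.

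The Rag1 probe set itself was too dim to check the labels, with an intensity of 2.87 to 22.8 for BP, 1.37 to 2.69 for Rag1 and 3.54 to 17.6 for B6. The epithelium that makes Pigr was present in all samples: the 14 epithelial markers, each at its brightest probe set, summed to 51452 to 55922 for BP, 61203 to 68292 for Rag1 and 61427 to 63931 for B6. Array quality differed. The ratio of the 3-prime to the 5-prime probe set of beta-actin, a control that grows when RNA is shortened or copied incompletely, was 14.2, 2.43 and 20.2 on BP replicates 1, 2 and 3, 1.53, 1.69 and 1.77 on Rag1 replicates 1, 2 and 3, and 3.25, 1.76 and 4.17 on B6 replicates 1, 2 and 3. The Gapdh ratio ordered the groups likewise, at 1.81 to 17.1 for BP, 1.22 to 1.45 for Rag1 and 1.25 to 2.85 for B6. The brightest Xist probe set reads a transcript of the inactive X chromosome of females. It was 36, 624 and 1735 on BP replicates 1, 2 and 3, 5.84 to 24.1 for Rag1 and 1086 to 1539 for B6. The part of sex in the Pigr values between Rag1 and B6 thus cannot be told apart from group. The BP arrays differed among themselves. BP replicate 1 was near the median intensity of its own array, 30.2, and little above the Rag1 arrays, while BP replicates 2 and 3 were far higher. The part of sex in the comparisons with BP was not tested.

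The 250 bases before the Pigr start, and a 28-base stretch around the first bases of exon 1, are printed because factors measured on these arrays are known to act there in the human gene. Capitals mark CACGTG, the E-box that USF1 and USF2 bind in the human PIGR promoter, and TTTCNNTTT, a loose form of the interferon-stimulated response element that IRF1 binds in human exon 1. Both were searched on both strands after the sequence was seen. The sequences are from RefSeq, build GRCm38.p6, plus strand, at chr1:130826434-130826683 for the promoter and chr1:130826681-130826708 for exon 1, which overlap each other by a few bases.
Pigr promoter: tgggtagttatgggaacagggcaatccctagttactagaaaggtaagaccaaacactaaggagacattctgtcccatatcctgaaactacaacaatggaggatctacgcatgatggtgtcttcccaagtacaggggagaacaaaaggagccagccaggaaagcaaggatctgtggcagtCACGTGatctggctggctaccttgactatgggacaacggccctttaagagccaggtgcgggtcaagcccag
Pigr exon 1 stretch: cagaaaacagTTTCAGTTTtgacaatag
The E-box starts at position -71 from the transcript start, and 7.15% of 32851 mouse promoter windows of 300 bases hold one. The other motif starts at position 8 of the transcript, and 10.6% of the windows hold it on either strand. The 2 motifs do not overlap.

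Pigr gave a strong signal in all 3 groups on its brighter probe set. The intensity was 5076, 4827 and 4245 on BP replicates 1, 2 and 3, 5924, 6562 and 5719 on Rag1 replicates 1, 2 and 3, and 5872, 4738 and 6245 on B6 replicates 1, 2 and 3. In these deposited intensities every BP array lay below every Rag1 array, while the B6 arrays spanned part of both groups. Over all 9 arrays the coefficient of variation was 14.2%. After quantile normalization of log2(intensity + 16), the scale of all log2 values here, the groups overlapped in each comparison, with means of 12.28 ± 0.16 for BP, 12.54 ± 0.18 for Rag1 and 12.41 ± 0.21 for B6 (SD, n = 3 each).

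The dimmer probe set separated the groups. It read 828, 1692 and 1142 on BP replicates 1, 2 and 3, 4310, 4701 and 3496 on Rag1 replicates 1, 2 and 3, and 2887, 2930 and 1938 on B6 replicates 1, 2 and 3. All BP arrays lay below all B6 arrays, and all B6 arrays lay below all Rag1 arrays. Its coefficient of variation over the 9 arrays was 51.2%, and its group means on the log2 scale were 10.24 ± 0.34 for BP, 11.99 ± 0.27 for Rag1 and 11.30 ± 0.36 for B6 (SD, n = 3 each).

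**Figure D1:**
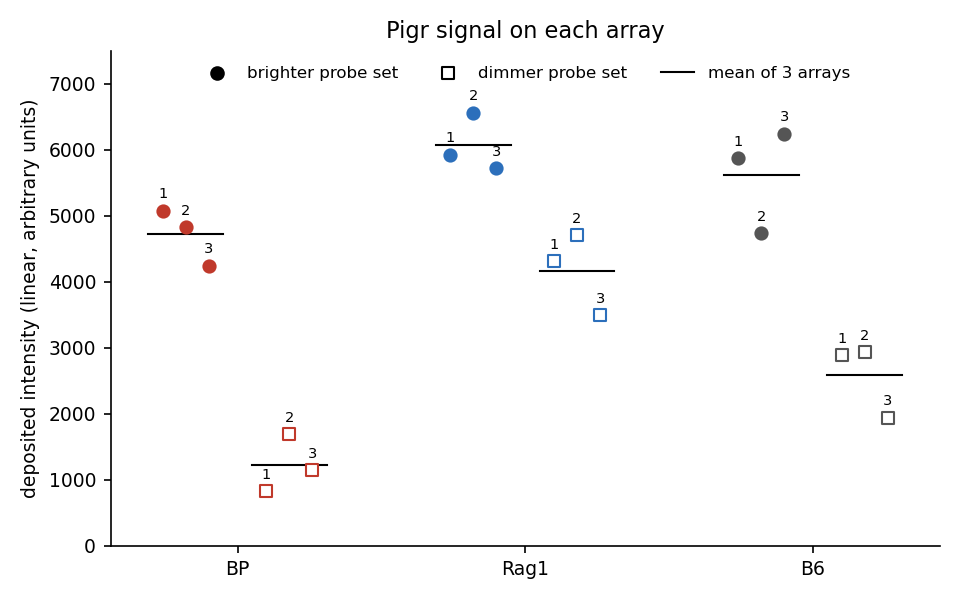
Deposited intensity (linear, arbitrary units, axis from 0) of the 2 Pigr probe sets on each array of the BP, Rag1 and B6 groups, with replicate numbers and a line at the mean of 3 arrays. The brighter probe set (filled circles) stays between 4245 and 6562, while the dimmer one (open squares) runs from 828 on BP replicate 1 to 4701 on Rag1 replicate 2.

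BP against Rag1 tissue compares samples with the same source label. Adjusted p-values are from limma over 27022 probe sets. The dimmer Pigr probe set fell by 1.74 ± 0.22 on the log2 scale (SE, n = 3 each; adjusted p = 0.00719), a 3.35-fold lower level in BP tissue. It ranked 22 by p, in a comparison in which 3.8% of probe sets were called and in which 14.2% had all BP arrays below all Rag1 arrays. The brighter probe set differed by -0.26 ± 0.14 (adjusted p = 0.346), with a 95% interval of -0.57 to 0.05. Without normalization between arrays it differed by -0.36 ± 0.13 (adjusted p = 0.171). The call of the dimmer probe set was lost without Rag1 replicate 1 (-1.72, adjusted p = 0.0525) and without Rag1 replicate 2 (-1.60, adjusted p = 0.0594), and held without any other single array.

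Rag1 against B6 tissue asks how Pigr differs where IgA transcripts are nearly absent. The brighter probe set differed by 0.13 ± 0.14 (SE, n = 3 each; adjusted p = 0.999), with a 95% interval of -0.18 to 0.45. The dimmer one differed by 0.69 ± 0.22 (adjusted p = 0.557), with an unadjusted 95% interval of 0.20 to 1.18, and did not pass in a comparison in which 0.329% of probe sets were called. Its 3 Rag1 arrays all lay above its 3 B6 arrays, as did those of 8.7% of tested probe sets. With array weights in the fit this difference passed (0.68, adjusted p = 0.0237). In a limma fit of the Rag1 and B6 arrays alone the adjusted p was 0.0937. The BP arrays also enter the spread of the main fit. For this probe set the SD was 0.34 in BP, 0.27 in Rag1 and 0.36 in B6. The reason why the adjusted p differed between the fits was not tested.

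BP against B6 tissue sets the BP group against mice with IgA transcripts. The brighter probe set differed by -0.13 ± 0.14 (adjusted p = 0.746), with a 95% interval of -0.44 to 0.19. The dimmer one differed by -1.05 ± 0.22 (adjusted p = 0.0641) in a comparison with 0.633% of probe sets called. All 3 BP arrays lay below all 3 B6 arrays, as they did for 11.3% of probe sets. The difference lay near the threshold: it passed in 6 of 14 other settings (adjusted p from 0.0117 to 0.216 over the 14) and without BP replicate 2 (-1.20, adjusted p = 0.00317), and not without any other single array. The 3 comparisons share their arrays in pairs.

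**Figure D2:**
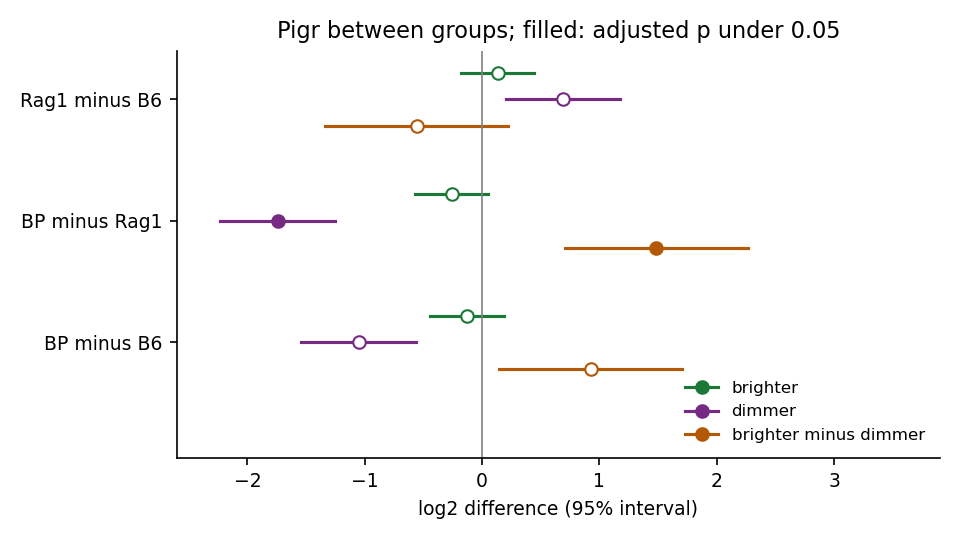
Log2 differences of the brighter probe set, the dimmer probe set and the brighter minus the dimmer, with 95% intervals, for Rag1 minus B6, BP minus Rag1 and BP minus B6; filled points have an adjusted p under 0.05. The intervals of the brighter probe set all include 0, and the dimmer probe set is called at -1.74 for BP minus Rag1.

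The 2 probe sets of the gene gave different sizes of change, and their disagreement was tested itself. The intensity of the dimmer probe set as a percentage of the brighter one was 16.3, 35 and 26.9 on BP replicates 1, 2 and 3, 72.7, 71.6 and 61.1 on Rag1 replicates 1, 2 and 3, and 49.2, 61.8 and 31.0 on B6 replicates 1, 2 and 3. Probe sets differ in their own efficiency, so this percentage has a meaning only across arrays. The B6 arrays overlapped both of the other groups, and the BP and Rag1 arrays were apart. The brighter minus the dimmer value, on the log2 scale, was 2.03 ± 0.50 in BP tissue, 0.55 ± 0.12 in Rag1 tissue and 1.11 ± 0.53 in B6 tissue (SD, n = 3 each).

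The same difference between the brightest and second brightest probe set was fitted for all 5680 genes with at least 2 tested probe sets. For BP minus Rag1 the Pigr difference changed by 1.48 ± 0.35 (SE; adjusted p = 0.0390), and 6.64% of the genes were called. A change of this size or larger was seen in 4.24% of the genes. Over the 9 arrays the Pigr difference spanned 2.12 on the log2 scale, against a median span of 1.60 over these genes, and 24.0% spanned as much or more. Its 3 BP values all lay above its 3 Rag1 values, as in 16% of genes. This call sat close to the threshold and was lost without 6 of the 9 arrays taken singly, for instance without BP replicate 1 (1.21, adjusted p = 0.0753), BP replicate 3 (1.56, adjusted p = 0.0733) or B6 replicate 1 (1.48, adjusted p = 0.0703), and without Rag1 replicates 1, 2 and 3 (adjusted p = 0.158, 0.137 and 0.103). For Rag1 minus B6 the difference was -0.56 ± 0.35 (adjusted p = 1.00) and for BP minus B6 it was 0.93 ± 0.35 (adjusted p = 0.208), and 0.0176% of genes were called in each.

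Set against array quality, the dimmer probe set and the difference between the probe sets moved with the control ratio over the 9 arrays, and the brighter probe set showed no such relation that passed. The correlation of the brighter minus dimmer value with the log2 beta-actin ratio had Pearson's r = 0.86 (exact permutation p = 0.00243, adjusted p = 0.00987 over 6 relations) and Spearman's rho = 0.97 (exact permutation p = 0.000165, adjusted p = 0.000992). For the dimmer probe set r was -0.83 (exact permutation p = 0.00359, adjusted p = 0.00987) and rho was -0.90 (exact permutation p = 0.00203, adjusted p = 0.00406). For the brighter one r was -0.16 (exact permutation p = 0.676, adjusted p = 0.676) and rho was -0.20 (exact permutation p = 0.613, adjusted p = 0.736).

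BP replicates 1 and 3 lay farthest from the median ratio. Over the 7 arrays left, the difference had r = 0.82 (exact permutation p = 0.0361, adjusted p = 0.149), which did not pass, and rho = 0.96 (exact permutation p = 0.00278, adjusted p = 0.0167), which did. The dimmer probe set had r = -0.66 (exact permutation p = 0.105, adjusted p = 0.193) and rho = -0.82 (exact permutation p = 0.0341, adjusted p = 0.0683), and neither passed. On deviations from the group means r was 0.60 and -0.50 (exact permutation within groups, p = 0.227 and 0.245). With the Gapdh ratio r was 0.82 for the difference (exact permutation p = 0.00566, adjusted p = 0.00987) and -0.80 for the dimmer probe set (exact permutation p = 0.00658, adjusted p = 0.00987).

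**Figure D3:**
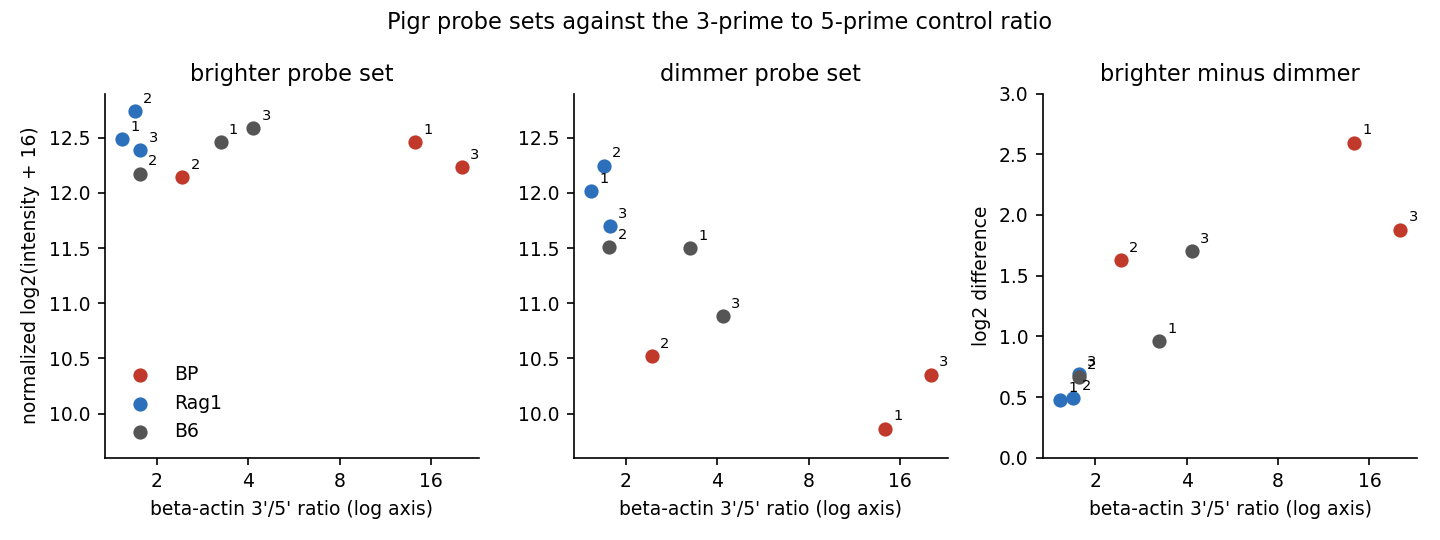
The 2 Pigr probe sets (normalized log2 intensity, same vertical range) and their difference on each array, against the beta-actin 3-prime to 5-prime ratio on a log axis, with replicate numbers. BP replicate 2, at a ratio of 2.43, has a dimmer probe set value of 10.52, below B6 replicate 1 with 11.50 at a ratio of 3.25.

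For each doubling of the beta-actin ratio the dimmer probe set was lower by 0.49 on the log2 scale (slope -0.49), and 1.54% of 27022 probe sets had a slope as low or lower. The slope of the brighter one was -0.02, close to the median of all probe sets (-0.0046). The difference between the 2 had a slope of 0.46, and 5.30% of the 5680 genes had one as high or higher. Between BP and Rag1 tissue, where the dimmer Pigr probe set differed by -1.74, the beta-actin probe sets differed by -0.37 at the 3-prime end, -1.49 in the middle and -2.73 at the 5-prime end on the log2 scale, and those of Gapdh by -0.24, -1.03 and -2.45. Between Rag1 and B6 tissue, where the dimmer Pigr probe set differed by 0.69, the 5-prime probe sets of beta-actin and Gapdh differed by 0.91 and 0.68, and between BP and B6 tissue, where it differed by -1.05, they differed by -1.82 and -1.77. These are differences of group means of 3 arrays each, and they were not tested.

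Single arrays were also set side by side by their ratio, 1 against 1, which gives no measure of spread. No Rag1 array had a ratio as high as that of any BP array. BP replicate 2, at a ratio of 2.43, had a dimmer intensity of 1692, against 2887 on B6 replicate 1 at a ratio of 3.25. Rag1 replicate 3 had 3496 and B6 replicate 2 had 2930 at almost the same ratio (1.77 and 1.76). Without BP replicates 1 and 3 the dimmer probe set fell by 1.47 for BP against Rag1, a value that rests on BP replicate 2 alone. That array stood apart in other ways. Its 3-prime Dap control probe set read 1019, against 8.14 to 19.1 on the other arrays. Its median intensity was 48.0, against 29.4 to 37.4 on the others. The part of this in its Pigr values was not tested. With the log2 beta-actin ratio as a covariate in the fit of all 9 arrays, the dimmer probe set fell by 1.35 ± 0.28 for BP against Rag1 (adjusted p = 0.00698). With the Gapdh ratio it fell by 1.44 ± 0.28 (adjusted p = 0.00946). The brighter probe set then differed by -0.49 ± 0.19 (adjusted p = 0.0942) with the beta-actin ratio. The change in the difference between the probe sets did not pass with that covariate (0.87 ± 0.45, adjusted p = 0.222). For both controls every BP ratio lay above every Rag1 ratio, so these fits cannot tell the ratio apart from the group.

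Pigr is an epithelial transcript in a tissue that also holds muscle, stroma and immune cells, and in such samples fewer epithelial cells and less RNA per cell cannot be told apart. Of the 14 epithelial markers, the adhesion protein Epcam fell in BP against Rag1 tissue by 0.47 ± 0.11 (adjusted p = 0.0389) and no other passed, beside 2.17% of all genes that fell. The median difference of the 14 was -0.23, and the largest in the other direction were 0.69 ± 0.34 for the transcription factor Cdx2 (adjusted p = 0.282) and 0.39 ± 0.19 for the keratin Krt18 (adjusted p = 0.290). Epcam read 3899, 4086 and 3883 on the BP arrays, 6083, 5490 and 6249 on the Rag1 arrays and 5081, 5804 and 5807 on the B6 arrays. No array of the other groups was as low as the BP arrays, a pattern that 14.2% of probe sets showed against Rag1 and 11.3% against B6. Vil1, the brush border protein villin, differed by -0.18 ± 0.11 (adjusted p = 0.383) and the junction protein Cdh1 by 0.01 ± 0.18 (adjusted p = 0.983) for BP minus Rag1. At an unadjusted p under 0.05 by limma, 5 of the 14 markers differed for BP minus Rag1, 3 for BP minus B6 and 1 for Rag1 minus B6. The 5 were Epcam, Krt20, Cldn7, Krt19 and Lgals4, all lower in BP tissue. The share of all genes under that threshold was not counted, here or for the lists below. Of 10 markers of smooth muscle and stroma, 2 fell in BP against Rag1 tissue, the myosin Myh11 by 1.51 ± 0.25 (adjusted p = 0.0134) and the filament protein Des by 0.69 ± 0.17 (adjusted p = 0.0485), again beside 2.17% of all genes. The list's median was -0.10, 4 of the 10 had an unadjusted p under 0.05, and the filament protein Vim and the actin Acta2 had differences of 0.67 ± 0.22 (adjusted p = 0.111) and 0.35 ± 0.13 (adjusted p = 0.166). Myh11 read 673, 1200 and 480 on the BP arrays, 2306, 2122 and 2165 on the Rag1 arrays and 1359, 2121 and 1155 on the B6 arrays. Its lowest values in the BP and B6 groups were on the arrays with a control ratio above 3, as for the dimmer Pigr probe set. For the latter, B6 replicates 1 and 2 were close, at 2887 and 2930. The part of array quality in the Myh11 values was not tested.

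Against the mean log2 value of the 14 markers on the same array, the brighter probe set was at 0.59 ± 0.10 in BP tissue, 0.71 ± 0.22 in Rag1 tissue and 0.62 ± 0.18 in B6 tissue (SD, n = 3 each). The differences were -0.13 for BP minus Rag1 (two-sided exact permutation p = 0.50), 0.09 for Rag1 minus B6 (exact permutation p = 0.50) and -0.03 for BP minus B6 (exact permutation p = 0.70), where 3 arrays against 3 cannot go below 0.1. The signs of the last 2 turned when single arrays were left out. The dimmer probe set was at -1.45 ± 0.45 in BP tissue, 0.16 ± 0.33 in Rag1 tissue and -0.49 ± 0.39 in B6 tissue on the same measure. The BP arrays did not overlap the others, by a narrow gap: BP replicate 2 was at -1.02 and B6 replicate 3 at -0.94. The share of all probe sets apart in this way on this measure was not counted.

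Transcripts of the receptor's cargo differed strongly in both comparisons with B6 and did not pass between BP and Rag1 tissue. Igha, the IgA heavy chain constant region, read 111, 54.5 and 68.4 on the BP arrays, 93.4, 89.7 and 83.4 on the Rag1 arrays and 4947, 2583 and 6389 on the B6 arrays. Jchain, the chain that Pigr recognises in polymeric IgA, read 8.05 to 22.6 for BP, 2.53 to 11.1 for Rag1 and 472 to 2546 for B6. Both were low on every BP and Rag1 array and high on every B6 array (all Rag1 arrays lay below all B6 arrays for 9% of probe sets). Of 8 tested genes of IgA and its assembly, 3 fell and none rose in Rag1 against B6 tissue, namely Igha with a log2 difference of -5.44 ± 0.37 (adjusted p = 3.61e-05), Jchain with -5.80 ± 0.48 (adjusted p = 0.00016) and the light chain segment Iglv1 with -2.66 ± 0.43 (adjusted p = 0.0216). The same 3 fell in BP against B6 tissue, and 0 of 8 passed in BP against Rag1 tissue by limma, also at an unadjusted p under 0.05, with a smallest adjusted p of 0.461. The list's median was -1.04, -1.13 and -0.12 for Rag1 minus B6, BP minus B6 and BP minus Rag1, beside -0.02, -0.04 and -0.02 over all 13570 genes.

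Counts of other genes of this transport system are set beside the share of all 13570 genes called, which was 0.0737% higher and 0.317% lower for Rag1 minus B6, 1.1% higher and 2.17% lower for BP minus Rag1, and 0.0368% higher and 0.545% lower for BP minus B6. These lists were drawn up from background knowledge. Their counts at an unadjusted p under 0.05 by limma have no such share beside them, since it was not counted.

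Of 21 tested signals and transcription factors that act on Pigr, none passed in Rag1 against B6 tissue or in BP against B6 tissue, and 1 fell in BP against Rag1 tissue. At an unadjusted p under 0.05 limma gave 3, 5 and 6 of them for Rag1 minus B6, BP minus B6 and BP minus Rag1. The one that fell was Nr3c1, the glucocorticoid receptor, which fell by 0.91 ± 0.22 (adjusted p = 0.0444). It read 310, 748 and 335 on BP replicates 1, 2 and 3, 824 to 915 for Rag1 and 611 to 775 for B6, so its 2 lowest values were on the BP arrays with the highest control ratios. Irf1, the factor of the exon 1 element printed above, read 1450, 1525 and 1753 on the BP arrays, 1666, 1590 and 1570 on the Rag1 arrays and 2467, 2823 and 2529 on the B6 arrays. The B6 arrays were all above the others, as for 11.3% of probe sets against BP and 9% against Rag1, and the differences of -0.68 ± 0.16 for Rag1 minus B6 (adjusted p = 0.234) and -0.69 ± 0.16 for BP minus B6 (adjusted p = 0.0970) did not pass. Usf1 and Usf2, the E-box factors, differed by -0.79 ± 0.41 (adjusted p = 0.308) and -0.52 ± 0.33 (adjusted p = 0.413) for BP minus Rag1. The receptor chain Il4ra differed by 0.57 ± 0.19 for Rag1 minus B6 (adjusted p = 0.597) and Ifngr1 by 0.71 ± 0.21 for BP minus B6 (adjusted p = 0.156). The list's median was 0.11 for Rag1 minus B6, -0.37 for BP minus Rag1 and -0.26 for BP minus B6.

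Of 20 tested genes of basolateral sorting and transcytosis, 1 fell in BP against Rag1 tissue and none passed in the other comparisons, where limma gave 2 for Rag1 minus B6 and 4 for BP minus B6 at an unadjusted p under 0.05. Rab25, an epithelial GTPase of the apical recycling endosome through which transcytosed receptors pass, fell by 0.97 ± 0.17 (adjusted p = 0.0151). It read 321, 418 and 317 on the BP arrays, 792, 613 and 823 on the Rag1 arrays and 502, 535 and 571 on the B6 arrays. All BP arrays lay below all Rag1 arrays and all B6 arrays, as for 14.2% and 11.3% of probe sets. Rab17, an epithelial GTPase that acts in receptor transcytosis, had 0.54 ± 0.19 for BP minus B6 (adjusted p = 0.223), and the motor Myo5b had 0.48 ± 0.21 for Rag1 minus B6 (adjusted p = 0.875). The list's median was 0.09, -0.24 and -0.04 for Rag1 minus B6, BP minus Rag1 and BP minus B6.

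Of 10 tested other antibody receptors, Fcgr3, a receptor for IgG on myeloid cells, rose in BP against Rag1 tissue by 1.47 ± 0.25 (adjusted p = 0.0158), and no other passed in any comparison (at an unadjusted p under 0.05 limma gave 4 of 10 for BP minus Rag1 and 1 for each of Rag1 minus B6 and BP minus B6). The myeloid receptor Fcgr4 and the shared signalling chain Fcer1g differed by 1.08 ± 0.34 (adjusted p = 0.105) and 0.78 ± 0.29 (adjusted p = 0.155) for BP minus Rag1. Fcgr3 read 138 to 246 for BP, 52.3 to 84.6 for Rag1 and 76.4 to 88.0 for B6. The 5 macrophage markers summed to 1802 to 2389 for BP, 1408 to 1614 for Rag1 and 1150 to 1646 for B6, and their part in this result was not tested. Fcgrt, the epithelial IgG transporter FcRn, read 282, 460 and 234 on the BP arrays, 455, 351 and 466 on the Rag1 arrays and 347, 424 and 314 on the B6 arrays, and it differed by -0.31 ± 0.20 for BP minus Rag1 (adjusted p = 0.441). The groups overlapped. The medians of the list were -0.21, 0.35 and 0.19 for Rag1 minus B6, BP minus Rag1 and BP minus B6.

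None of 7 tested epithelial cytokines and chemokines of the IgA system passed, and at an unadjusted p under 0.05 limma gave 1 for Rag1 minus B6, 3 for BP minus Rag1 and 0 for BP minus B6. The chemokine Ccl28, which draws IgA plasma cells, differed by -0.76 ± 0.31 for BP minus Rag1 (adjusted p = 0.193), and Aldh1a1, an enzyme of retinoic acid synthesis, by 0.88 ± 0.24 (adjusted p = 0.0640). None of 7 tested genes among the 6 nearest on each side of Pigr passed either, with 0, 2 and 1 at an unadjusted p under 0.05 for Rag1 minus B6, BP minus Rag1 and BP minus B6. The neighbour Fcmr, an IgM receptor, differed by -0.05 for BP minus Rag1 (adjusted p = 0.966), and the kinase Mapkapk2 by -0.63 ± 0.21 (adjusted p = 0.127). Fcamr, the other adjoining gene and a receptor for IgA and IgM, was too dim to test.

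**Figure D4:**
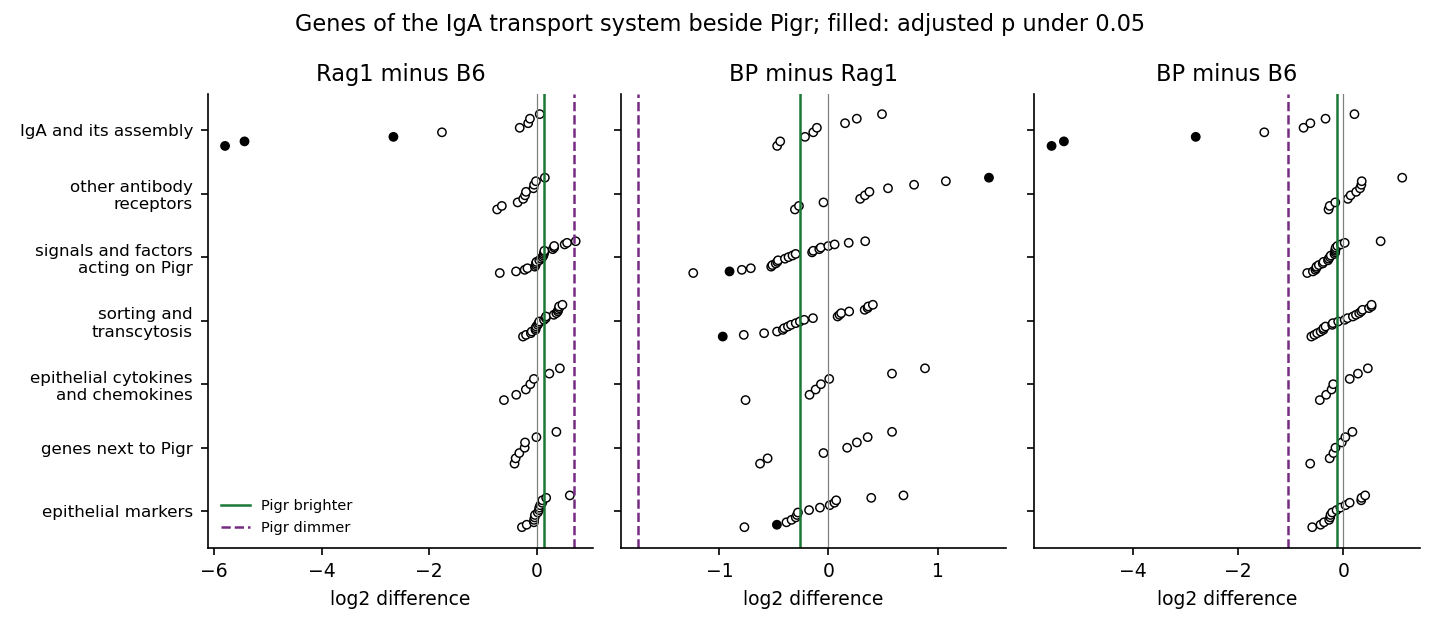
Log2 differences of each tested gene in 7 lists (1 point a gene, filled where the adjusted p is under 0.05) for Rag1 minus B6, BP minus Rag1 and BP minus B6, each with its own horizontal scale, and vertical lines at the brighter (solid) and dimmer (dashed) Pigr probe sets. Igha, Jchain and Iglv1 stand far to the left in both comparisons with B6, and the dimmer Pigr line lies left of every listed gene for BP minus Rag1.

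The genes whose values over the 9 arrays were most like each probe set were different ones. For the brighter probe set the highest Pearson r among 12811 genes were 0.95 for Atp8b3, 0.95 for Itga2, 0.93 for Pdia2, 0.91 for Adcy3 and 0.90 for Nol3. For the dimmer probe set they were 0.97 for Ccdc3, 0.97 for Senp6, 0.97 for Tmem45b, 0.96 for Sertm1 and 0.96 for Zfp760. The 2 sets of 5 shared 0 genes. Ccdc3 read 121, 246 and 179 on the BP arrays, 437, 346 and 372 on the Rag1 arrays and 273, 309 and 246 on the B6 arrays. Its values were lowest on BP replicate 1, as those of the dimmer Pigr probe set were. Ccdc3 was picked for its likeness to that probe set on these same arrays, so this is no separate result. The share of genes with r above 0.9 was 0.71% for the dimmer probe set and 0.047% for the brighter one. On deviations from group means it was 0.18% and 0.29%. The highest of so many correlations over 9 arrays can be high by chance, and the share expected by chance was not worked out. Some of these genes were dim, for instance Itga2 at 20.5 to 46.9 and Sertm1 at 4.85 to 52.7, against array medians of 29.4 to 48.0. With group means removed the closest were Nfasc (r = 0.99), Nol3, Iqca, Smim6 and Pdia2 for the brighter and Krt80 (r = 0.99), Pla2g5, Scrt1, Prrg3 and Cntn1 for the dimmer probe set. The 2 probe sets themselves correlated with r = 0.43 over 9 arrays, and with r = -0.36 once group means were removed. The median over the 5680 genes was 0.14 and 0.18. These correlations are descriptions over arrays that differ in group and control ratio, and the part of either in them was not tested.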

How the data were processed

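The deposited table holds linear probe set intensities of 9 Affymetrix arrays, from 1 to 21694; per the labels' protocols, 20 µg of total RNA went into each biotinylated cRNA. The software and scaling behind them are not given in the sources used. Each of the 9 columns bears its sample's name, and titles give group and replicate number.

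Values were transformed to log2(intensity + 16) and quantile-normalized; removing 64 control probe sets and the dimmest 40% by mean kept 27022. limma 3.58.1 in R 4.3.3 was fitted to all 9 arrays with 1 mean per group (6 residual degrees of freedom, moderated with an intensity trend), two-sided, with Benjamini-Hochberg adjustment over all probe sets and a threshold of 0.05. The difference between the brightest and second brightest probe set was fitted the same way over 5680 genes. These fits share 1 spread among the groups, although the median SD of the tested probe sets was 0.44 in BP, 0.21 in Rag1 and 0.23 in B6. Log2 differences understate changes of dim genes. A gene was its brightest tested probe set. Probe sets were named by the platform annotation. The fits were tried on simulated data with independent noise of the same spread in every group. That setting differs from these arrays, where the BP spread was larger.

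Members, lists and tests were chosen with earlier results of these data known. Named genes are Pigr, per list up to 4 called genes (otherwise up to 2 with the smallest p) and a few fixed genes, and the 5 genes most like each probe set. With their values known, Usf1, Usf2, Fcmr, Cdx2, Krt18, Vim, Acta2, Fcgr4, Fcer1g and the profile of Ccdc3 were added. The pairs of arrays set side by side by control ratio were also added with their values known. Some listed genes are not reported here. Alternatives were other normalizations, pseudocounts and filters, a fit of 2 groups alone, a replicate block, no trend, array weights, a control ratio as covariate (Gapdh added after seeing the data) and leaving out arrays.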

Additional observations from a re-analysis of the deposited data

How the results depend on the processing

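Of the Pigr results, the brighter probe set passed under no alternative in any comparison; its sign turned once, for Rag1 minus B6 with each array centred on its median (-0.0067). Without single arrays it ran from 0.017 to 0.22 for Rag1 minus B6, -0.35 to -0.16 for BP minus Rag1 and -0.24 to -0.037 for BP minus B6, where the lowest sizes came without B6 replicate 2, Rag1 replicate 2 and B6 replicate 3. The dimmer probe set for BP minus Rag1 stayed below 0 throughout and passed in all 14 settings that left out no single array, at -1.35 to -1.83, and at -1.56 to -1.90 in the 9 settings without 1 array, 7 of which passed. For BP minus B6 the dimmer probe set passed with median centring (-1.26), array weights (-1.14), the beta-actin ratio (-0.79) or the Gapdh ratio (-0.83) as a covariate, without BP replicates 1 and 3 (-0.78) and without the 4 arrays with a beta-actin ratio above 3 (-0.995), and ran from -1.26 to -0.86 without single arrays; for Rag1 minus B6 it passed with array weights (0.68). Why these settings passed was not tested, and those that left out arrays also had fewer samples. Both settings without BP replicates 1 and 3 rest on BP replicate 2 as the only BP array.

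The difference between the probe sets for BP minus Rag1 no longer passed with a pseudocount of 1 (1.49), no filter (1.48), only the groups compared (1.48), the replicate block (1.48), the beta-actin ratio (0.87) or the Gapdh ratio (0.997) as a covariate, or without BP replicates 1 and 3 (1.09), and ran from 1.21 to 1.70 without single arrays, 3 of 9 passing; for Rag1 minus B6 it ran from -0.78 to -0.26, the smallest without B6 replicate 3. Deviations from group means of same-numbered arrays in different groups had r from -0.19 to 0.23. Differently numbered arrays were not set beside them, so this cannot tell whether the numbers pair samples. The replicate block changed no other Pigr call. Relative to the epithelial markers, the brighter probe set for BP minus B6 ran from -0.14 to 0.034 without single arrays and was 0.17 without the 4 arrays above a ratio of 3; for Rag1 minus B6 it ran from -0.015 to 0.21, and for BP minus Rag1 from -0.25 to -0.031. Pearson's correlations with the beta-actin ratio no longer passed without the 2 farthest arrays (r of 0.82 for the difference, whose rho of 0.96 still passed, and -0.66 for the dimmer probe set) or on deviations from group means (0.60 and -0.50), and the sign for the brighter probe set turned in both (0.094 and 0.51). The number of arrays limits the precision; both probe sets were far above the brightness needed for testing.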
